A study of Mus musculus with 12 samples.

Results

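The 10 genes described here encode the hormones, granule proteins and markers by which enteroendocrine cells of the gut are recognized. They were chosen by symbol as Chga, Chgb, Gcg, Pyy, Insl5, Sst, Tph1, Cck, Nts and Neurod1, and all 10 were found among the 17734 genes of the expression table. RNA came from the rectum of 12 male adult C57BL/6 mice, 3 in each of the 4 groups. Normal mice received neither agent, colitis mice received dextran sulfate sodium (DSS), normal mice receiving BBR (berberine, a plant alkaloid) had no DSS, and colitis mice receiving BBR had both. DSS was given for 7 days and BBR by gavage for 6 days. The sample labels call the tissue colorectum, and no sex, strain or genotype differed between groups. DSS damages the colonic epithelium and is a chemical model of colitis, not a genetic one. Each value is read here as a level in FPKM, a unit inferred from the values. FPKM accounts for the length of the transcript and the depth of the library, so that levels of different genes can be set beside each other.

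Enteroendocrine cells are rare hormone-secreting cells scattered through the gut epithelium. They store peptides in dense-core granules with chromogranins and release them on contact with nutrients, bile acids, microbial products or mechanical force. In the distal bowel the main types are L cells, which make glucagon-like peptides, peptide YY and an insulin-family peptide, enterochromaffin cells, which make serotonin, and D cells, which make somatostatin. The RNA came from whole tissue, so fewer or more cells of a type and less or more RNA per cell cannot be told apart.

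Promoters are shown for Gcg, Insl5, Cck and Pyy, the 4 of the 10 genes that passed an adjusted limit in any fit described below, so that the letters before their start sites can be set beside their levels. They are the 250 bases before a RefSeq start of each gene in GRCm38.p6, 5′ to 3′ on the strand of the gene. Where RefSeq gives several starts, the one nearest to the start of a GENCODE transcript of the gene was taken, and for Insl5 and Sst a longer RefSeq transcript begins further upstream, so that their windows lie inside the gene as a whole. Capitals mark CAGATG, searched on both strands, which is one form of the E-box bound by basic helix-loop-helix factors such as NeuroD1, and TATAAA on the gene strand, the TATA box.
Gcg, chr2:62483654-62483903, minus strand: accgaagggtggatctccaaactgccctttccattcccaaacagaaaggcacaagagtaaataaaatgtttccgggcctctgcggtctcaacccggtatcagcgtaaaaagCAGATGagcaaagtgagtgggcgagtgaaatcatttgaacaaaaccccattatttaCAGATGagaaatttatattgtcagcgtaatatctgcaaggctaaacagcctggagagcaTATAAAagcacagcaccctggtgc
Insl5, chr4:103026729-103026978, minus strand: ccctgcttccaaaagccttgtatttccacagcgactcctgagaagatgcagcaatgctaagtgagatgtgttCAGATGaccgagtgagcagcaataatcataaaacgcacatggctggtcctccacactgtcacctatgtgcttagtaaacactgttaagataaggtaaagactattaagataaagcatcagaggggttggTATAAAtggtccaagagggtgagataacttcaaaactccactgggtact
Cck, chr9:121495695-121495944, minus strand: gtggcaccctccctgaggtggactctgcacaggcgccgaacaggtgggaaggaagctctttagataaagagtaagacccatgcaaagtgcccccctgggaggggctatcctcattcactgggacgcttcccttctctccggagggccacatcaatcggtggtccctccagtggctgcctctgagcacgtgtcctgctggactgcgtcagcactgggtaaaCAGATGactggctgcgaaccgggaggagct
Pyy, chr11:102107833-102108082, minus strand: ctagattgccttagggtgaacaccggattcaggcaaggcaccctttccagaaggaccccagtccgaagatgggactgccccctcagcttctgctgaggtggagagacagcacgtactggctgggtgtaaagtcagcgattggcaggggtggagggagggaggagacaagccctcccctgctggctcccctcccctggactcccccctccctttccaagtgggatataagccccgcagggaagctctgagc
CAGATG stood 139 and 83 bases before the start of Gcg, 178 bases before Insl5 and 30 bases before Cck. TATAAA stood 24 bases before Gcg and 49 bases before Insl5. The palindrome TGACGTCA, the cyclic AMP response element, was also searched and stood 72 bases before Chgb and 48 bases before Sst. Pyy, Chga, Tph1, Nts and Neurod1 held none of these exact letters in the window, and other spellings of the elements were not searched. Of 32851 mouse promoter windows of this length, 14.4% held CAGATG, 7.59% held TATAAA and 1.55% held TGACGTCA, and a match is a string of letters rather than a measured binding site.

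The libraries were not alike in their summed values and in the number of genes at 0. The 4 mice numbered 4, one in each group, had summed values of 482194 to 504337 FPKM and 872 to 1086 genes at 0, against 696286 to 765876 FPKM and 1332 to 1926 genes at 0 in the 8 other mice. The results for colitis against normal mice are therefore given with and without them. Neutrophil marker genes summed to 0.51 to 2.72 FPKM in the 6 mice without DSS and to 47.9 to 499.8 FPKM in the colitis mice. In colitis mice receiving BBR they summed to 219 and 201 FPKM in mice 2 and 3 and to 2.79 FPKM in mouse 4, close to the mice without DSS. Beyond that library, no marker list contradicted a label.

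In normal mice Pyy and Insl5, hormones of the L cells, led the 10 genes. Values are given in the order of the mouse numbers. These were 1, 3 and 4 in both groups without DSS, 1, 2 and 4 with DSS alone, and 2, 3 and 4 with DSS and BBR. Pyy, the precursor of peptide YY, which slows gut transit and curbs appetite, averaged 419 ± 112 FPKM (SD, n = 3). Insl5, the L cell peptide of the insulin family, averaged 244 ± 129 FPKM (SD, n = 3). Chgb stood at 56.5 ± 7.42, Chga at 42.9 ± 9.10, Gcg at 36.9 ± 12.4 and Sst at 24.7 ± 5.33 FPKM (SD, n = 3 each). Pyy exceeded Insl5 in each of the 3 mice although their ranges overlapped, and the neighbours Chgb and Chga, Chga and Gcg, and Gcg and Sst also overlapped in range. Below them came Tph1 at 8.57, Neurod1 at 2.07, Cck at 1.01 and Nts at 0.203 FPKM, each apart from the next in range.

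In colitis mice 2 genes moved up this order. Gcg went from the 5th place to the 3rd, at a mean of 369 FPKM, and Cck from the 9th to the 7th, at 30.1 FPKM. Pyy and Insl5 stayed first and second at 1726 and 656 FPKM. In all 3 colitis mice Gcg was above Chgb and Chga, whereas in normal mice Gcg was below Chga in 2 of 3. Ranges of neighbours in the order overlapped throughout the colitis group except between Neurod1 and Nts.

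**Figure D1:**
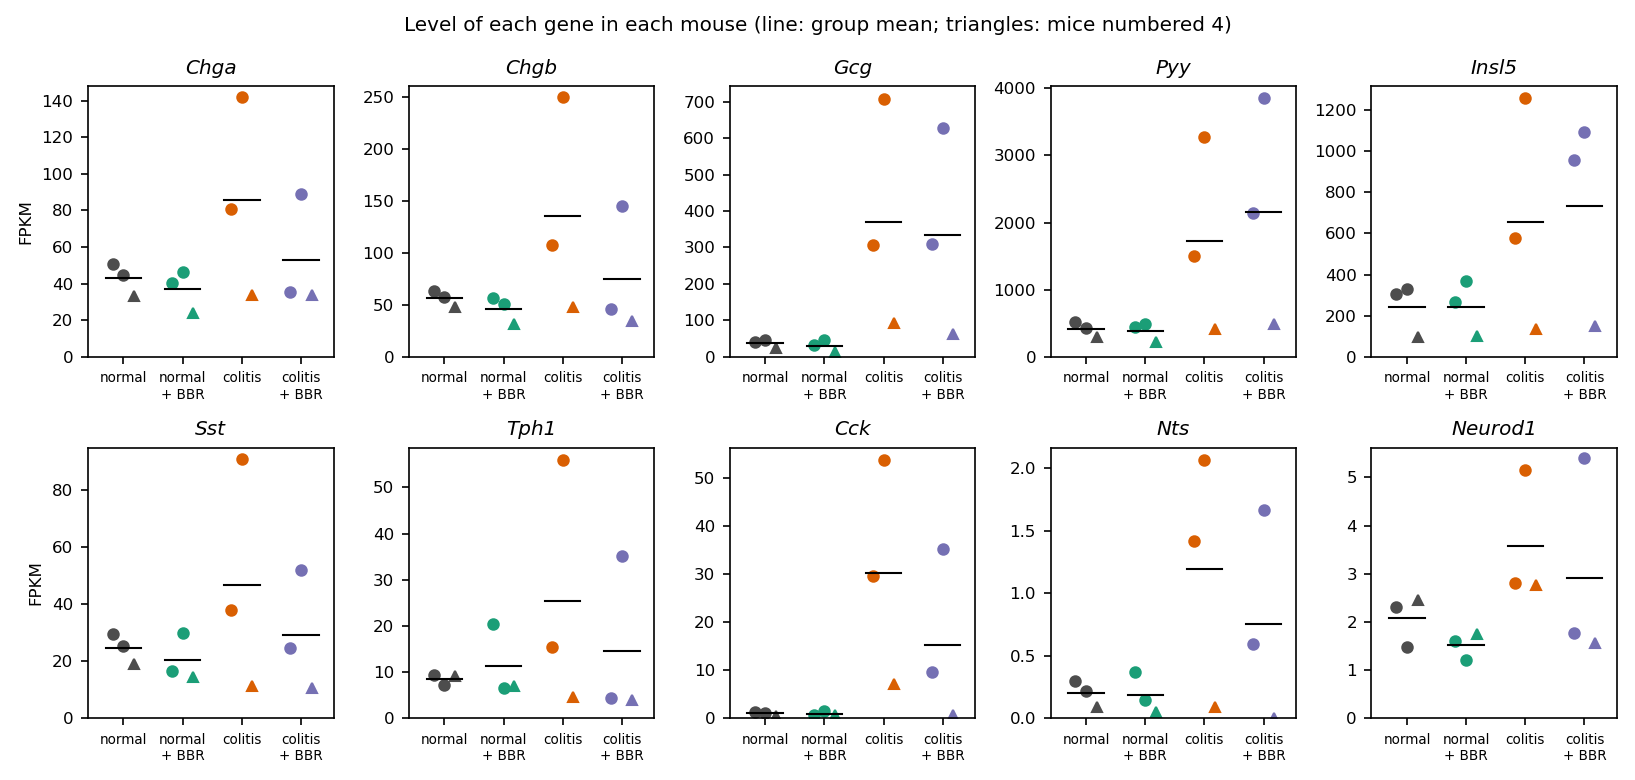
Level in FPKM (vertical axes, from 0) of the 10 genes in each mouse, by group (horizontal axes). Circles are mice numbered 1 to 3, triangles are mice numbered 4, and lines are group means of 3 mice. Gcg was between 13.8 and 47.3 FPKM in the 6 mice without DSS. It was between 61.4 and 708 FPKM in the 6 mice with DSS, with no overlap. The triangle is the lowest point of every gene in both colitis groups. It is also the lowest of 8 of 10 genes in normal mice and of 7 of 10 in normal mice receiving BBR.

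The comparison of colitis with normal mice asked how DSS colitis went with the hormone genes of the rectum. All 10 genes had a higher fitted mean in colitis mice, with log2 fold changes from 0.49 to 4.46 and a median of 1.03. That median was 0.41 to 1.89 when any 1 mouse was left out. Over all 15315 genes tested, the median log2 fold change was -0.32, 26.2% of genes were higher and 73.7% lower. None of the 10 passed the adjusted limit of 0.05 of limma, a test that borrows information on the spread across all genes, whereas 1.08% of all genes did. Gcg and Cck passed an unadjusted P of 0.05 and were higher, 2 of 10 genes, against 5.56% of all genes. Both did so in each of 24 alternative fits, whereas the count of the 10 ran from 2 to 7. It was 4 under quantile normalization, with Pyy and Neurod1 added, and 4 with the replicate number as a block, with Pyy and Insl5 added, and in these fits 19.6% and 26.2% of all genes passed in either direction. The groups did not overlap for 3 genes, Gcg, Cck and Neurod1, all higher in colitis, against 7.1% of all genes that were higher without overlap.

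Gcg encodes proglucagon, from which L cells cut the glucagon-like peptides. It stood at 41.4, 46.5 and 22.9 FPKM in normal mice and at 306, 708 and 93.6 FPKM in colitis mice. Every colitis mouse was above every normal mouse, and the lowest colitis value was that of mouse 4. The fitted log2 fold change was 2.94 with a standard error of 0.854, and the limma adjusted p was 0.102 with an unadjusted P of 0.00499. With the mice numbered 4 left out, the limma adjusted p was 0.0285, and with a term for these mice it was 0.00949, the lowest of 24 alternatives that ranged up to 0.278. Within the mice numbered 4 alone the colitis mouse was higher by 2.03 on the log2 scale, and in the others by 3.40. Leaving out any 1 mouse gave log2 fold changes of 2.26 to 3.72.

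Cck encodes cholecystokinin, a hormone chiefly of the small bowel that contracts the gallbladder and signals satiety. It was near the bottom of the range in normal mice, at 1.41, 1.11 and 0.50 FPKM. In colitis mice it stood at 29.6, 53.6 and 7.16 FPKM. The groups were apart, and even the lowest colitis mouse was above the highest normal mouse. The fitted log2 fold change was 4.46 with a standard error of 1.11, with a limma adjusted p of 0.0706 and an unadjusted P of 0.00184. Without the mice numbered 4 the limma adjusted p was 0.0259, with a term for them 0.0140, and within them the difference was 3.60 on the log2 scale. Over its 24 alternatives the limma adjusted p ranged from 0.00958 to 0.203. In the RefSeq annotation Cck shares bases with the predicted gene Gm38661, the only overlap found for any of the 10 genes, so a part of its reads is uncertain.

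Pyy and Insl5, the other L cell hormones, were higher in mean but their groups overlapped. Pyy stood at 523, 434 and 299.8 FPKM in normal mice and at 1496, 3268 and 414 FPKM in colitis mice. Colitis mice 1 and 2 were far above the normal range and mouse 4 lay inside it. The log2 fold change was 1.63 with a standard error of 0.802 and a limma adjusted p of 0.256. It was 0.95 to 2.44 when any 1 mouse was left out. Without the mice numbered 4 the limma adjusted p was 0.0447, and with a term for them 0.0472, against up to 0.619 under other alternatives. Gcg, Cck and Pyy were thus 3 of 10 genes past the limma adjusted limit in both of these fits, which 9.22% of all genes passed with the term and 5.25% without the mice. Insl5 stood at 307, 329.7 and 95.5 FPKM in normal mice and at 576, 1259 and 133 FPKM in colitis mice. Again mice 1 and 2 were above the normal range and mouse 4 was inside it, and the log2 fold change was 1.11 with a standard error of 0.925 (limma adjusted p = 0.471). It was 1.42 without the mice numbered 4, and 0.38 to 1.998 when any 1 mouse was left out.

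The granins gave smaller differences. Chga, chromogranin A, which packs hormones into granules and is the general marker of enteroendocrine cells, stood at 50.9, 44.8 and 33.0 FPKM in normal mice and at 81.0, 142 and 33.9 FPKM in colitis mice. Chgb, chromogranin B of the same granules, stood at 63.0, 57.9 and 48.4 FPKM in normal mice and at 108, 249.9 and 48.3 FPKM in colitis mice. For both, colitis mice 1 and 2 were above every normal mouse and mouse 4 was in or at the edge of the normal range. The log2 fold change was 0.79 with a standard error of 0.503 for Chga and 0.96 with a standard error of 0.584 for Chgb, and the limma adjusted p was 0.355 and 0.336. With any 1 mouse left out these log2 fold changes were 0.31 to 1.34 for Chga and 0.36 to 1.55 for Chgb, the lowest without colitis mouse 2, and without the mice numbered 4 they were 1.17 and 1.44.

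The markers of other enteroendocrine types did not pass the test either. Sst, somatostatin of the D cells, which inhibits the release of other hormones, stood at 29.6, 25.5 and 19.0 FPKM in normal mice and at 38.1, 91.0 and 11.4 FPKM in colitis mice. Its log2 fold change of 0.49 (SE 0.688, limma adjusted p = 0.673) was -0.22 without colitis mouse 2, up to 1.27 without another mouse and 1.10 without the mice numbered 4. Colitis mice thus lay on both sides of the normal range. Tph1, tryptophan hydroxylase, the rate-limiting enzyme of serotonin synthesis in enterochromaffin cells, stood at 9.36, 7.13 and 9.22 FPKM in normal mice and at 15.5, 56.0 and 4.68 FPKM in colitis mice. Its log2 fold change was 0.90 with a standard error of 0.914 (limma adjusted p = 0.551). It was 0.003 without colitis mouse 2, up to 1.78 without another mouse and 1.84 without the mice numbered 4. Colitis mouse 4 was below all 3 normal mice for both Sst and Tph1.

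Nts and Neurod1 were the low members. Nts, neurotensin of the N cells, stood at 0.30, 0.22 and 0.09 FPKM in normal mice and at 1.42, 2.06 and 0.09 FPKM in colitis mice. A value of 3 reads of Nts corresponds to 0.127 to 0.190 FPKM here, as estimated from the steps of low values, so mouse 4 of both groups was below that floor. The log2 fold change was 1.56 with a standard error of 1.05 (limma adjusted p = 0.380), and 2.34 without the mice numbered 4. Neurod1, a transcription factor of enteroendocrine differentiation, stood at 2.30, 1.47 and 2.45 FPKM in normal mice and at 2.80, 5.15 and 2.76 FPKM in colitis mice. The groups did not overlap but the gap was narrow, and the log2 fold change was 0.73 with a standard error of 0.453 (limma adjusted p = 0.346), and 1.01 without the mice numbered 4.

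**Figure D2:**
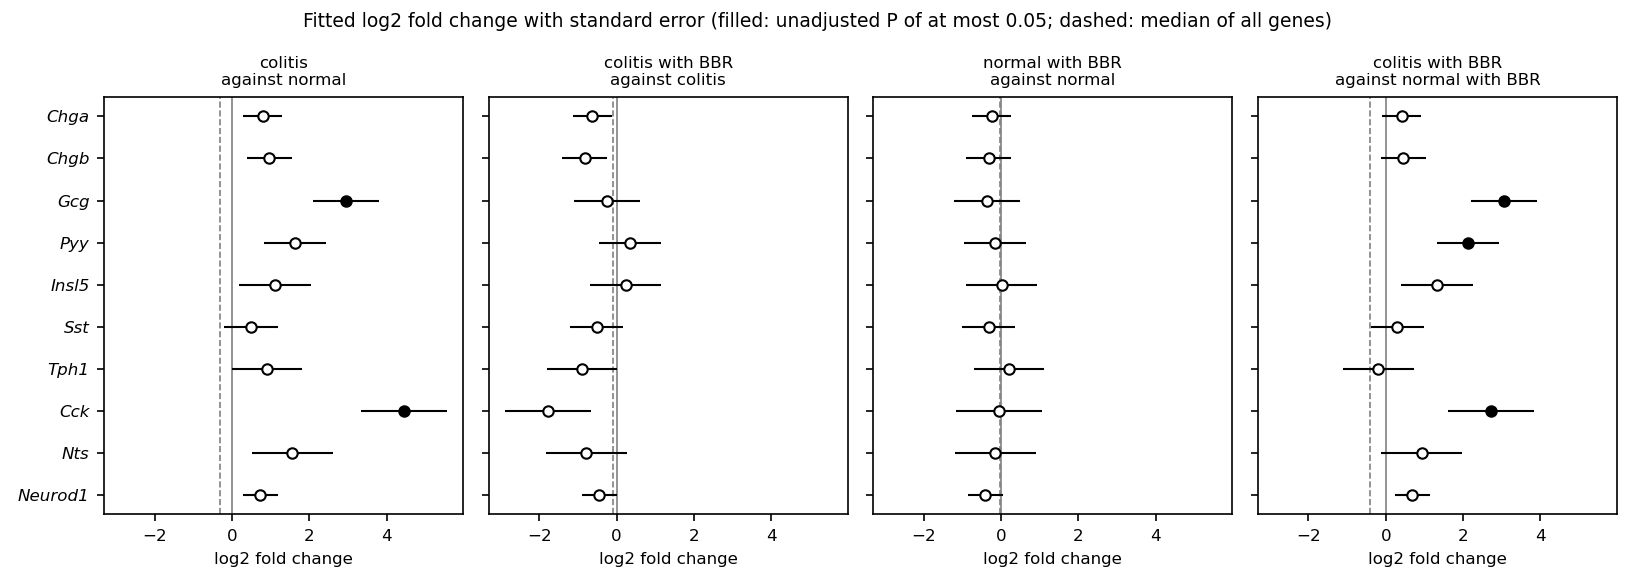
Fitted log2 fold change (horizontal axes) with its standard error for the 10 genes in 4 comparisons of 3 mice with 3. Filled points passed an unadjusted P of 0.05, and the dashed line is the median of all tested genes. The points of Gcg lay at 2.94 in colitis against normal mice and at 3.06 in colitis against normal mice receiving BBR, and no point was filled in the comparisons of BBR with no BBR.

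The same comparison in mice receiving BBR has its own animals in both groups. Here 9 of 10 genes were higher with colitis, and the median difference was 0.81 on the log2 scale, beside -0.40 over all genes. That median was 0.077 to 1.54 when any 1 mouse was left out. None of the 10 passed the adjusted limit, which 0.0392% of all genes did. Gcg, Pyy and Cck were higher at an unadjusted P of 0.05, 3 of 10 genes against 2.37% of all genes, a count that ran from 1 to 5 under the alternatives, and Gcg and Pyy had no overlap, 2 of 10 against 2.26%. Gcg stood at 31.2, 47.3 and 13.8 FPKM without DSS and at 309, 628 and 61.4 FPKM with it. Its log2 fold change was 3.06 with a standard error of 0.854 (limma adjusted p = 0.214), against 0.0170 in the fit without colitis mouse 4 receiving BBR, in which 14.7% of all genes passed the adjusted limit, and up to 0.528 in others. Every mouse with DSS was above every mouse without it.

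Pyy stood at 447, 483 and 222 FPKM without DSS and at 2140.0, 3852 and 495 FPKM with it. The groups were apart by a narrow gap at mouse 4, with a log2 fold change of 2.14 (SE 0.802, limma adjusted p = 0.222). Cck stood at 0.67, 1.46 and 0.72 FPKM without DSS and at 9.59, 35.2 and 0.74 FPKM with it. Mouse 4 with DSS lay within the range of the mice without it. The log2 fold change of 2.73 (SE 1.11, limma adjusted p = 0.234) became 4.08 without the mice numbered 4. It was 1.52 to 4.22 when any 1 mouse was left out. Insl5 stood at 264, 367 and 102 FPKM without DSS and at 959, 1093 and 150.2 FPKM with it, and the log2 fold change was 1.33 (SE 0.925, limma adjusted p = 0.386). Without the mice numbered 4, 4 of the 10 genes passed the limma adjusted limit in this comparison, namely Gcg, Pyy, Insl5 and Cck, against 15.0% of all genes in that fit.

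With BBR disregarded, the 6 mice with DSS could be set against the 6 without in an exact two-sided permutation test, whose smallest possible p is 0.00216. Gcg had a median of 307 FPKM with DSS and 36.3 FPKM without, 6 of 6 mice with DSS were above all mice without, and the exact p was 0.00216, the smallest the test can give. Cck had medians of 19.6 and 0.915 FPKM, 5 of 6 mice were above, and the exact p was 0.00866. Pyy had medians of 1818 and 441 FPKM, 4 of 6 mice were above, and the exact p was 0.0238. The other 7 genes had exact p values from 0.0563 for Neurod1 to 0.619 for Tph1. These 10 p values carry no adjustment, and 5.06% of all genes were higher with DSS at an exact p of at most 0.05.

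The mice numbered 4 mattered here too. In the 8 other mice, 4 with DSS and 4 without, Gcg, Pyy, Insl5, Cck and Nts each reached an exact p of 0.0286, the smallest that design can give, and all 5 were higher with DSS, as were 3.98% of all genes at that p. In the 4 mice numbered 4, the mean difference between mice with and without DSS was 2.09 for Gcg, 1.82 for Cck, 0.81 for Pyy and 0.52 for Insl5 on the log2 scale. It was 0.26 for Chga, 0.06 for Chgb, 0.01 for Neurod1, -0.29 for Nts, -0.61 for Sst and -0.89 for Tph1. The value of Cck is the mean of 3.60 without BBR and 0.035 with it, where mouse 4 stood at 0.74 FPKM with DSS and 0.72 FPKM without. The mean difference of the L cell hormones and Cck was thus above 0 in both sets of mice, and those of Nts, Sst and Tph1 lay on opposite sides of 0 in them.

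The 10 genes varied together from mouse to mouse. Within the colitis mice, mouse 2 had the highest value of 10 of 10 genes and mouse 4 the lowest of 10 of 10. Within the colitis mice receiving BBR, mouse 3 was highest and mouse 4 lowest for 10 of 10. Mouse 4 was also lowest for 8 of 10 in normal mice and for 7 of 10 in normal mice receiving BBR. Across the 45 gene pairs, Pearson's r of log2 values had a median of 0.803 over the 12 mice and of 0.885 after group means were removed. These are descriptions over libraries that differed in summed values and in tissue markers, and no value for other gene pairs is given. Beside them, the summed epithelial markers, Epcam and keratins among them, were 10320 to 14140 FPKM in normal and 10190 to 13800 FPKM in colitis mice, and 0 of 12 passed an unadjusted P of 0.05, against 21.4% of all genes. Summed smooth muscle markers were 1716 to 3305 FPKM in normal mice and 91.4, 688 and 725 FPKM in colitis mice 1, 2 and 4. With DSS and BBR they were 524, 505 and 3656 FPKM in mice 2, 3 and 4. Their part in the result was not tested.

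Hormone levels were also set against Chga of the same mouse, a ratio that does not depend on the scaling of the library. These ratios were chosen after the values were seen and are given with no test. Gcg per Chga was 0.577 to 1.04 in the 6 mice without DSS and 1.83 to 8.75 in the 6 with it. Pyy per Chga was 9.08 to 11.0 without DSS, a narrow band, and 12.2 to 60.7 with it. Both ratios were higher in 6 of 6 mice with DSS, the mice numbered 4 included, although the Chga level of colitis mouse 4, 33.9 FPKM, was almost that of normal mouse 4, 33.0 FPKM. Cck per Chga was 0.0152 to 0.0316 without DSS and 0.211 to 0.394 in 5 mice with it, and 0.022 in colitis mouse 4 receiving BBR.

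The other ratios overlapped more. Insl5 per Chga was 2.89 to 7.92 without DSS and 3.92 to 27.2 with it, with 3 of 6 above. Sst per Chga was 0.413 to 0.649 without DSS and 0.312 to 0.705 with it, and Tph1 per Chga was 0.143 to 0.502 and 0.117 to 0.395. Among the L cell peptides, Gcg per Pyy was 0.0622 to 0.107 in the mice without DSS, 0.204 to 0.226 with DSS alone and 0.124 to 0.163 with DSS and BBR, 3 ranges that did not overlap. Gcg per Insl5 was 0.118 to 0.240 without DSS and 0.322 to 0.703 with it. Pyy per Insl5 overlapped, at 1.32 to 3.14 without DSS and 2.23 to 3.52 with it, with 2 of 6 above.

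**Figure D3:**
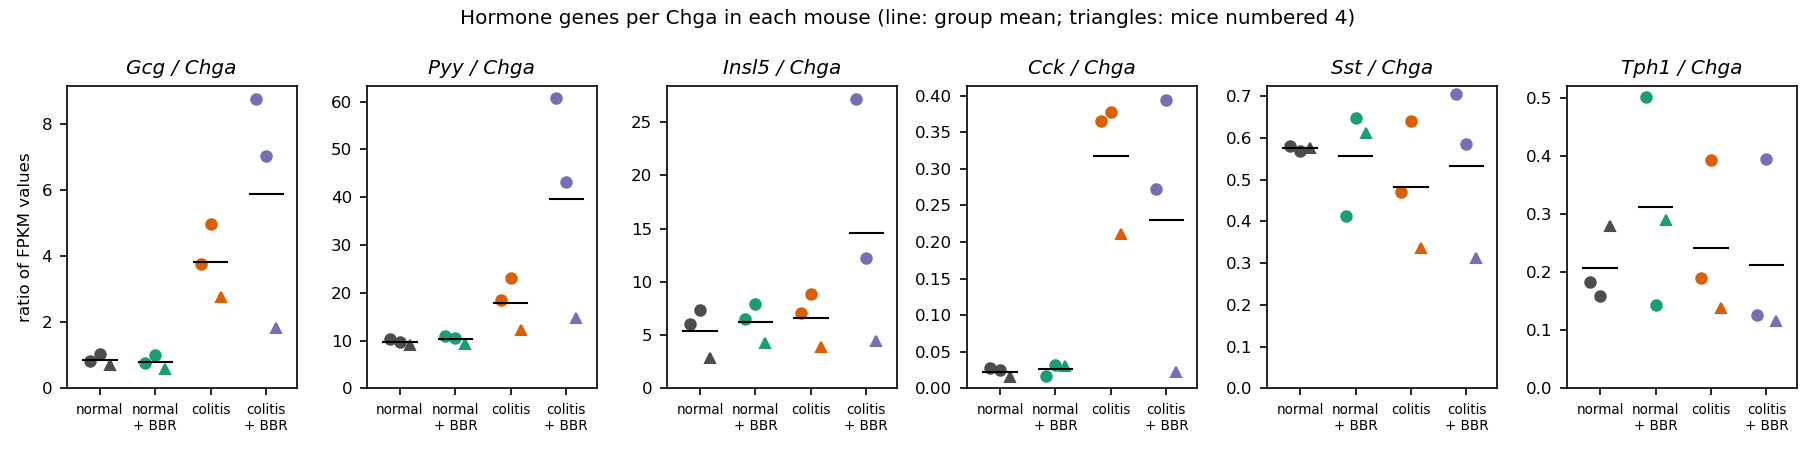
Ratio of the FPKM value of a hormone gene or Tph1 to that of Chga in the same mouse (vertical axes, from 0) by group (horizontal axes). Lines are means of 3 mice and triangles are mice numbered 4. Gcg per Chga was at most 1.04 in mice without DSS and at least 1.83 in mice with DSS, Pyy per Chga was at most 11.0 and at least 12.2, and Sst and Tph1 per Chga overlapped between the groups.

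BBR in colitis mice was compared with colitis mice alone, the question being whether the levels differed with the drug. This comparison shares the colitis mice with the comparison against normal mice. Pyy and Insl5 had higher fitted means with BBR and 8 genes had lower ones. The median difference was -0.57 on the log2 scale, beside -0.09 over all genes, of which 62.0% were lower. The median of the 10 was -1.24 to -0.025 when any 1 mouse was left out. None of the 10 passed an unadjusted P of 0.05, which 6.39% of all genes did, none was free of overlap, as 7.08% of all genes were, and none passed the adjusted limit, as did 0% of all genes. The lowest limma adjusted p among the 10 was 0.953, for Cck, which stood at 9.59, 35.2 and 0.74 FPKM with BBR and at 29.6, 53.6 and 7.16 FPKM without. Its log2 fold change of -1.78 had a standard error of 1.11, and the ranges overlapped. With the replicate number as a block Cck passed an unadjusted P of 0.05 in limma, at 0.0310 with a log2 fold change of -2.12, as did 11.0% of all genes, and with a term for the mice numbered 4 at 0.0422, as did 9.89%. Without colitis mouse 4, Chga, Chgb and Cck were lower at that P, against 5.97% of all genes, and without colitis mouse 3 receiving BBR, Chgb, Tph1, Cck and Neurod1 were, against 10.8%, both shares counted in either direction. Pyy averaged 2162 ± 1679 FPKM with BBR and 1726 ± 1441 FPKM without (SD, n = 3 each), a difference of 0.34 on the log2 scale with a standard error of 0.802.

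The granins stood lower in mean with BBR but not beyond the spread of mice. Chga was 35.3, 89.2 and 33.6 FPKM in colitis mice receiving BBR, a log2 fold change of -0.63 with a standard error of 0.503. Chgb was 46.4, 145 and 34.6 FPKM, a log2 fold change of -0.83 with a standard error of 0.584. In both genes mouse 3 lay between the 2 highest colitis mice and the other 2 mice lay below or near the lowest. Sst was 24.9, 52.1 and 10.5 FPKM, Tph1 4.48, 35.2 and 3.92 FPKM, and Neurod1 1.78, 5.41 and 1.56 FPKM in the same mice. Nts was 0.59, 1.66 and 0.00 FPKM, the last listed at 0. All of these overlapped the colitis mice, and 4 genes, Cck, Chgb, Chga and Neurod1, kept the lower sign when any 1 mouse was left out. The 6 others changed sign in at least 1 such fit.

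In normal mice BBR went with small differences. Log2 fold changes ran from -0.41 for Neurod1 to 0.20 for Tph1, with a median of -0.21 and standard errors of 0.453 to 1.11. That median was -0.43 to 0.10 when any 1 mouse was left out, so its sign was not stable. Each of the 10 genes overlapped between the groups, whereas 9.62% of all genes did not. None passed an unadjusted P of 0.05, which 1.36% of all genes did, and none passed the limma adjusted limit, as did 0% of all genes. Chga stood at 40.5, 46.3 and 23.9 FPKM, Chgb at 56.8, 50.4 and 31.8 FPKM and Sst at 16.7, 30.0 and 14.6 FPKM with BBR. Tph1 stood at 20.3, 6.63 and 6.95 FPKM, so that mouse 1 was above all normal mice and the other 2 were below them. Neurod1 at 1.75 FPKM or less in each mouse and Nts at 0.37, 0.15 and 0.05 FPKM completed the group. Pairing by mouse number is not in the labels. Mice numbered 1 and 3 correlated better across numbers (r = 0.366 and 0.456) than within them (r = 0.29 and 0.109). No share of all genes is given for the direction of pairs, so the counts of pairs are a description only. Between mice of the same number, Chgb and Neurod1 were lower with BBR in 3 of 3 pairs and the 8 other genes differed in direction between pairs. With the number as a block their log2 fold changes were -0.32 (SE 0.472) and -0.41 (SE 0.498), each with a limma adjusted p of 1, and the lowest unadjusted P among the 10 was 0.375, for Gcg. In the interaction of colitis and BBR none of the 10 passed an unadjusted P of 0.05 or the limma adjusted limit, which 2.42% and 0% of all genes passed. The difference between the effects of colitis with and without BBR was widest for Cck, -1.73 on the log2 scale with a standard error of 1.57.

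Among 9 other gut hormone genes tested, 7 had a higher mean in colitis mice, against 26.2% of all genes. The median was 0.52 on the log2 scale, beside -0.32 over all genes. Tac1 and Iapp were higher at an unadjusted P of 0.05 in limma, 2 of 9 against 5.56% of all genes. The adjusted limit was passed by 1 of 9, against 1.08% of all genes. Tac1, the precursor of substance P, which enterochromaffin cells and enteric neurons both make, rose and passed the adjusted limit. It stood at 8.33, 12.7 and 16.7 FPKM in normal mice and at 100.5, 84.7 and 99.7 FPKM in colitis mice. The 3 colitis values were close together, mouse 4 included, and the log2 fold change was 2.96 with a standard error of 0.367 (limma adjusted p = 0.00708). Under 24 alternative fits the limma adjusted p of Tac1 stayed between 0.000182 and 0.0431. Of 15 enteric neuron markers 14 had a lower mean in colitis mice, against 73.7% of all genes, the median was -0.88 on the log2 scale beside -0.32 over all genes, and their summed level was 50.9 to 101 FPKM in normal and 22.9 to 72.1 FPKM in colitis mice. Their part in the Tac1 result was not tested.

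In colitis mice receiving BBR, Tac1 stood at 37.7, 91.5 and 29.4 FPKM. The range overlapped that of the colitis mice and lay above the 11.1, 13.0 and 11.2 FPKM of normal mice receiving BBR. Against colitis mice the log2 fold change was -1.02 with a standard error of 0.367 (limma adjusted p = 0.631, unadjusted P = 0.0172). Sct, the precursor of secretin, stood at 13.3, 12.4 and 8.68 FPKM in normal mice and at 75.8, 141 and 11.1 FPKM in colitis mice. Only mouse 4 of the colitis mice was within the normal range, and the log2 fold change was 2.12 with a standard error of 0.98 (limma adjusted p = 0.237). Iapp, amylin, was at 0.00, 0.16 and 0.16 FPKM in normal and at 2.57, 5.03 and 0.47 FPKM in colitis mice (limma adjusted p = 0.112), and the normal values are too near 0 for a fold.

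None of the factors that direct enteroendocrine fate passed the adjusted limit. Of 15 tested, 10 had a higher mean in colitis mice, against 26.2% of all genes, and 5 a lower one, the median difference was 0.36 on the log2 scale beside -0.32 over all genes, and 0 passed an unadjusted P of 0.05 with limma, against 21.4% of all genes. Under quantile normalization 13 of 15 were higher and 3 passed that unadjusted P, as did 19.6% of all genes. In mice receiving BBR, Pax4 and Rfx6 were higher with colitis at that P in limma, 2 of 15 against 2.37% of all genes. Neurog3, which starts endocrine commitment, stood at 0.56, 0.62 and 0.75 FPKM in normal mice and at 1.02, 0.24 and 3.51 FPKM in colitis mice. The colitis mice lay on both sides of the normal mice, and mouse 4, the lowest for all 10 hormone and granin genes, was the highest for Neurog3. Insm1, which acts after it, had a log2 fold change of 0.14 with a standard error of 0.434 (limma adjusted p = 0.856).

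Genes of the granule and of prohormone cleavage were as often higher as lower, 9 and 9 of 18, and their median difference of 0.00 on the log2 scale was 0.29 under quantile normalization with 15 of 18 higher. The 1 gene of the 18 at an unadjusted P of 0.05, against 21.4% of all genes, was Scgn, secretagogin, a calcium-binding protein of neuroendocrine cells. It stood at 5.04, 5.51 and 4.36 FPKM in normal mice and at 1.62, 4.15 and 2.33 FPKM in colitis mice, without overlap. The difference was -0.95 on the log2 scale (SE 0.366, limma adjusted p = 0.176), and at -0.52 under quantile normalization it no longer reached that P. Pcsk1, the convertase that cuts proglucagon into the glucagon-like peptides, stood at 1.64, 1.37 and 1.59 FPKM in normal mice and at 1.47, 2.99 and 1.07 FPKM in colitis mice. Colitis mice lay above and below the normal range. Scg2, secretogranin II, had a log2 fold change of -0.49 with a standard error of 0.419 (limma adjusted p = 0.476). Cpe, a carboxypeptidase that trims cleaved prohormones, had 1.04 with a standard error of 0.481 (limma adjusted p = 0.237).

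Genes that make and handle serotonin, Tph1 left aside, differed in both directions. Of 10, 8 had a lower mean in colitis mice, against 73.7% of all genes, the median was -0.90 on the log2 scale, and none passed the adjusted limit. At an unadjusted P of 0.05 Gch1 was higher, 1 of 10 against 5.56% of all genes, and Ddc, Maob and Htr4 were lower, 3 of 10 against 15.9%. Ddc, the decarboxylase of the second step of serotonin synthesis, which other cells also express, stood at 61.6, 44.6 and 44.4 FPKM in normal mice and at 23.5, 32.1 and 18.8 FPKM in colitis mice. The groups did not overlap, and the log2 fold change was -1.03 with a standard error of 0.338 (limma adjusted p = 0.131). It passed the limit in 1 of 24 alternatives, at a limma adjusted p of 0.0176. Gch1, which makes the cofactor of Tph1, stood at 13.0, 8.52 and 10.6 FPKM in normal mice and at 27.2, 22.5 and 23.3 FPKM in colitis mice. It too was without overlap, with a log2 fold change of 1.19 (SE 0.275, limma adjusted p = 0.0598), and passed the limit in 6 of 24 alternatives, at limma adjusted p values down to 0.0120. Slc18a1, the vesicular transporter that loads serotonin into granules, had a log2 fold change of 0.83 with a standard error of 0.454 (limma adjusted p = 0.293).

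Mast cells also make serotonin in rodents through Tph1, and their markers were checked. Of 9 tested, 5 had a higher mean in colitis mice, against 26.2% of all genes. The median was 0.93 on the log2 scale, beside -0.32 over all genes. The summed level was 12.4 to 16.0 FPKM in normal and 17.1 to 27.3 FPKM in colitis mice. At an unadjusted P of 0.05 in limma, Cpa3, Mcpt2 and Hdc were higher, 3 of 9 against 5.56% of all genes. Kit and Gata2 were lower, 2 of 9 against 15.9%. Mcpt2, a mucosal mast cell protease, had a log2 fold change of 3.63 (limma adjusted p = 0.108). Gata2, a factor of the lineage, had one of -1.80 (limma adjusted p = 0.0289). It was the 1 gene of the 9 past the adjusted limit, against 1.08% of all genes. The part of these cells in the Tph1 values was not tested.

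Among 15 tested genes by which enteroendocrine cells sense nutrients, force, hormones and other signals, mostly receptors but with the potassium channel subunits Kcnj11 and Abcc8 and the hormone and peptide receptors Sstr5 and Galr1 among them, 7 had a higher mean and 8 a lower one in colitis mice, around a median of -0.04 on the log2 scale. Ffar4, a receptor for long-chain fatty acids, had a log2 fold change of 0.93 (SE 0.436, limma adjusted p = 0.242), and Ffar2, a receptor for short-chain fatty acids, 0.58 (SE 0.421, limma adjusted p = 0.407). Gpbar1, the bile acid receptor of L cells, had -0.33 (SE 0.623, limma adjusted p = 0.759). None of the 3 passed the test. Olfr558, a receptor for short-chain fatty acids in the odorant receptor family, was the 1 gene of the 15 at an unadjusted P of 0.05, a smaller share than the 21.4% of all genes. It stood at 0.40, 0.42 and 0.34 FPKM in normal mice and at 0.00, 0.02 and 0.07 FPKM in colitis mice, without overlap (limma adjusted p = 0.0647, unadjusted P = 0.00123). The colitis values are too near 0 for a fold, and with a term for the mice numbered 4 the limma adjusted p was 0.0232. In colitis mice receiving BBR, Ffar4 stood at 25.6, 55.8 and 18.9 FPKM, against 19.9, 15.3 and 11.0 FPKM with BBR alone, with a log2 fold change of 1.00 (SE 0.436, limma adjusted p = 0.247).

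The receptors that receive these hormones mostly had lower means in colitis mice. Of 9 tested, 8 were lower in colitis mice, against 73.7% of all genes, and 6 were lower at an unadjusted P of 0.05, against 15.9% of all genes. Their median was -1.45 on the log2 scale, beside -0.32 over all genes. The count of 8 lower held under the 3 other scalings, and none passed the adjusted limit. Glp2r, a receptor of the glucagon-like peptides on subepithelial and neural cells, stood at 2.09, 2.62 and 3.02 FPKM in normal mice and at 0.49, 1.08 and 0.79 FPKM in colitis mice. The groups were apart, with a log2 fold change of -1.64 (SE 0.518, limma adjusted p = 0.120). With a term for the mice numbered 4, 4 of the 9 passed the limma adjusted limit, against 9.22% of all genes, among them Glp2r at 0.0431, whose alternatives ranged from 0.0368 to 0.304.

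Receptors of peptide YY and of the pancreatic polypeptide family showed the same direction. Npy1r stood at 4.37, 4.46 and 7.16 FPKM in normal mice and at 0.47, 1.37 and 2.18 FPKM in colitis mice (log2 fold change -2.09, limma adjusted p = 0.118). Npy4r stood at 1.87, 1.12 and 2.98 FPKM and at 0.08, 0.15 and 0.38 FPKM, with a log2 fold change of -2.81 (limma adjusted p = 0.0706), a size that depends on the 0.1 added to such low values. Sstr1, a somatostatin receptor, stood at 11.95, 11.5 and 8.36 FPKM and at 2.22, 4.67 and 1.68 FPKM, with a log2 fold change of -1.97 (limma adjusted p = 0.0613). In each the groups were apart. Sort1, a neurotensin-binding sorting receptor with many other ligands, had -0.54 (SE 0.306, limma adjusted p = 0.307). Rxfp4, the receptor of the Insl5 peptide, was at 0.20 FPKM or less in each mouse and was not tested. Smooth muscle markers, whose cells also carry some of these receptors, were lower in mean in colitis mice for 10 of 10 genes, against 73.7% of all genes, by a median of -2.91 on the log2 scale, and their part in the result was not tested.

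With BBR in colitis mice, 5 of these receptors had a higher mean and 4 a lower one than in colitis mice alone, the median was 0.16 on the log2 scale and none at an unadjusted P of 0.05. Of the other gut hormones 8 of 9 were lower, of the fate factors 11 of 15, and of the granule genes 10 of 18, against 62.0% of all genes. Serotonin genes were 5 higher and 5 lower, and sensing genes 8 higher and 7 lower. None of these genes passed the limma adjusted limit.

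**Figure D4:**
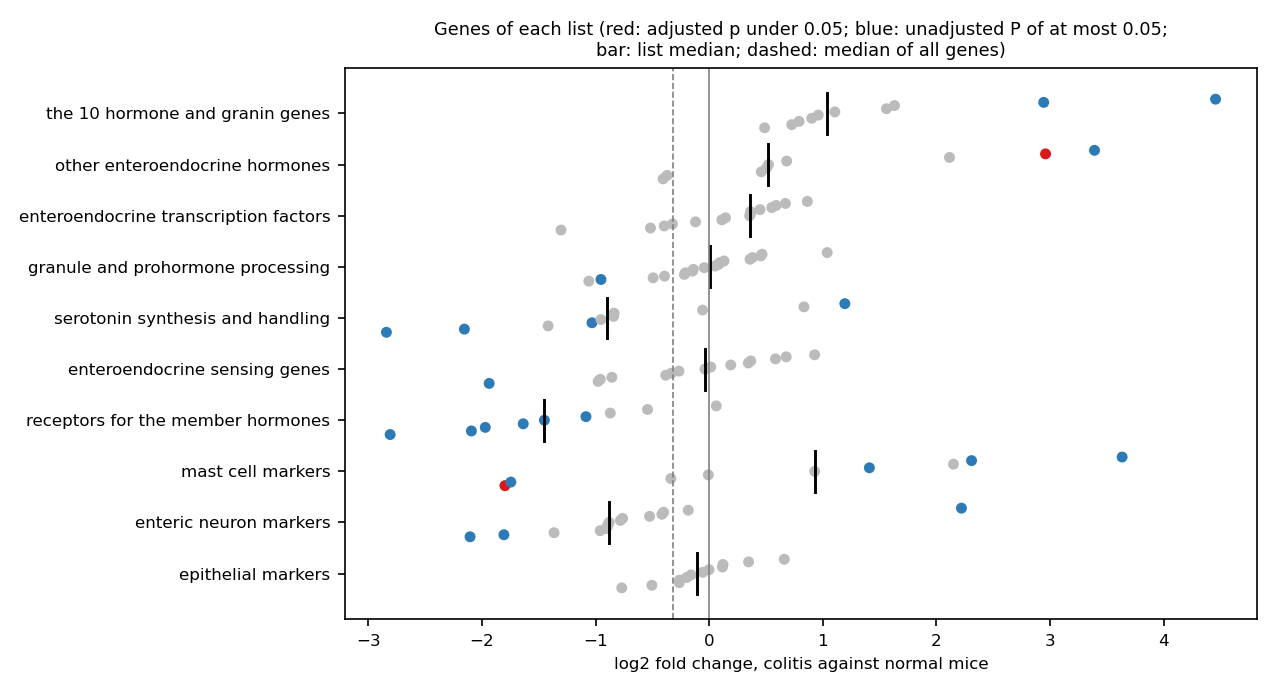
Log2 fold change of colitis against normal mice (horizontal axis) for the tested genes of 10 lists (vertical axis), one point a gene. Bars are list medians and the dashed line is the median of all genes, -0.32. The 10 hormone and granin genes had a median of 1.03 and the receptors for their hormones one of -1.45, and among the hormone lists Tac1 alone is drawn in red.

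Some genes outside the 10 followed a similar pattern over the 12 mice. This is a description with no test, since the libraries differed in summed values and in tissue markers. Of 11943 genes with a mean of at least 1 FPKM, the 5 with the highest Pearson r of log2 values with Chga were Sct at 0.959, Slc18a1 at 0.952, Tmsb4x at 0.952, St3gal3 at 0.949 and Pold4 at 0.944. With Pyy they were Wfdc17 at 0.957, Ppy at 0.954, Ms4a8a at 0.948, Cystm1 at 0.946 and Pappa2 at 0.945. Sct and Slc18a1 are themselves enteroendocrine genes. Ppy, pancreatic polypeptide, is a close relative of Pyy that lies 5357 bases from it on the same chromosome, and reads shared between these relatives, if any, cannot be told apart here. Ppy was at 34.1 to 83.9 FPKM without DSS and at 35.5 to 664 FPKM with it.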

How the data were processed

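Rectal RNA of 12 mice was sequenced, and mice were grouped and numbered by the sample labels. Per the labels, the build was mm9 and Bowtie2 2.2.5 and RSEM 1.2.12 were used. The authors deposited 1 value per gene and mouse. These deposited values are read here as FPKM from their behaviour, and TPM is possible. Read counts were not analysed here, so the depth was not known directly: steps of low values gave the worth of 1 read, and intervals from it would cover counting error only.

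Of 17734 genes, the 15315 whose mean reached 0.1 were kept. Their log2(FPKM + 0.1), which understates changes of low genes, entered limma 3.58.1 (R 4.3.3), in a model of the 4 group means with a trend on the prior spread. Benjamini-Hochberg adjustment covered each gene tested, with a limit of 0.05 and the study's unadjusted 0.05 beside it. The fit was also run on simulated data as a check of the code, whose outcome is not given here. Single genes were also tested by exact two-sided permutation (SciPy 1.17.1). With 3 mice against 3 that test cannot go below 0.1, so it is given for 6 against 6. Alternatives covered pseudocount, filter, scaling, mice in the fit, prior, replicate number, the mice numbered 4 and leaving out each mouse, and for 7 other named genes they were added after the data were seen.

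The 10 genes and all lists were chosen with earlier results of these data known. Named genes were the 10, genes of the lists past the adjusted limit, 14 listed genes fixed by name and the 5 genes most like Chga and Pyy. Iapp, Cpe, Gch1, Olfr558, Scgn, Maob, Htr4, Kcnj11, Abcc8, Sstr5, Galr1, Npy1r, Npy4r, Sstr1 and Mcpt2 were named after their values were seen. So were Cpa3, Hdc, Kit, Pax4 and Rfx6. Neutrophil genes past the limit and smooth muscle genes, none of which passed it as reported, are given as sums. Same-numbered mice of the 2 normal groups share numbers 1, 3 and 4, and their deviations from group means correlated at 0.29, 0.109 and 0.657, so they were taken as pairs there, from the data alone. Mice of these groups with different numbers correlated at up to 0.456, and those numbered 1 and 3 each correlated better with the other number, so the pairing is weak outside the mice numbered 4.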

Additional observations from a re-analysis of the deposited data

How the results depend on the processing

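The direction of the 10 genes in colitis against normal mice held under all alternatives but 1 for Sst, while the number past the limma adjusted limit did not. That number was 0 as reported. It was 1 (Cck) with only the mice of the groups compared (3.19% of all genes), 2 (Gcg and Cck, at 0.0153 and 0.0286) with the replicate block (4.79%), 3 (Gcg, Cck and Pyy) with a term for the mice numbered 4 (9.22%) and 3 (the same genes) without them (5.25%), against 1.08% of all genes as reported. Leaving out 1 mouse gave 0 to 2: 1 (Cck at 0.0231) without colitis mouse 3 receiving BBR (4.17% of all genes) and 2 (Cck at 0.00958 and Gcg at 0.0339) without colitis mouse 4 receiving BBR (5.34%). In colitis against normal mice receiving BBR it was 0, but 2 with a term for the mice numbered 4 (1.75% of all genes), 4 without them (15.0%), and 0 to 3 when 1 mouse was left out, the 3 being without colitis mouse 4 receiving BBR (14.7%). The replicate block gave 0 there and changed no adjusted call in the other comparisons. Normal mice and colitis mice share only the numbers 1 and 4, so the block there rests on a number and not on a known pairing. Over all genes the median difference of colitis from normal mice, -0.32 on the log2 scale as reported, was -0.049 with quantile normalization and 0.018 with each mouse centred on its median. At an unadjusted P of 0.05 the number of the 10 in colitis against normal mice, 2 as reported, was 2 in 16 of 24 alternatives and otherwise 3 to 7, with 6 under a term for the mice numbered 4 (31.9% of all genes), 7 without them (33.4%) and 7 without colitis mouse 4 (31.4%). The cause of these changes was not tested.

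Sign changes met values that had passed no test in the comparison concerned in the fit as reported. In normal mice with against without BBR they were, centred on epithelial markers, Chga 0.056, Pyy 0.14, Cck 0.25 and Nts 0.15, with quantile normalization Cck 0.062, and without the mice numbered 4 Insl5 -0.032. In colitis against normal mice receiving BBR, Tph1 was 0.17 with quantile normalization, 0.26 centred on the median and 0.12 without the mice numbered 4. In the interaction, Neurod1 was 0.011, 0.077 and 0.10 under the same 3 settings, and Gcg was -0.023 centred on epithelial markers and -0.14 with the replicate block. Log2 fold changes that changed sign when 1 mouse was left out ranged, in colitis against normal mice, from -0.22 to 1.27 for Sst. In colitis with BBR against colitis they ranged from -1.03 to 0.69 for Gcg, -0.66 to 1.16 for Insl5, -1.87 to 0.37 for Nts, -0.47 to 1.18 for Pyy, -1.30 to 0.20 for Sst and -1.91 to 0.007 for Tph1. In normal mice with against without BBR the ranges were -0.44 to 0.22 for Cck, -0.44 to 0.037 for Chga, -0.77 to 0.12 for Gcg, -0.57 to 0.55 for Insl5, -0.58 to 0.24 for Nts, -0.39 to 0.19 for Pyy and -0.32 to 0.48 for Tph1. In colitis against normal mice receiving BBR they were -0.045 to 0.66 for Chga, -0.17 to 0.86 for Chgb, -0.27 to 0.88 for Sst and -1.21 to 0.36 for Tph1. In the interaction they were -0.93 to 0.10 for Chga, -1.13 to 0.087 for Chgb, -0.66 to 1.06 for Gcg, -0.67 to 1.15 for Insl5, -0.59 to 0.28 for Neurod1, -1.72 to 0.52 for Nts, -0.30 to 1.35 for Pyy and -0.98 to 0.52 for Sst. Depth limits Nts most, since values of 0.127 to 0.190 FPKM stand for 3 reads.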
